A study of Mus musculus and Acomys cahirinus with 25 samples.

Results

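Cholesterol and barrier lipid synthesis genes are followed here through wound epidermis and dermis of laboratory mice and African spiny mice (Acomys cahirinus). The members were a list of 36 gene symbols, and all 36 were found among the 24500 gene rows of the count files. They comprise 15 cholesterol genes (13 enzymes, from Hmgcs1 to Dhcr7, and the regulators Srebf2 and Insig1) and 21 genes of the skin barrier (4 fatty acid elongases, 5 genes of ceramide synthesis, 4 of glucosylceramide loading and ceramide breakdown, 5 of acylceramide synthesis and oxidation, and 3 transglutaminases).

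RNA-seq was available from 25 libraries, 13 of lab mouse and 12 of spiny mouse. The lab mouse libraries came from full thickness wounds at post-wound day (PWD) 14 on the backs of 4-week-old animals. Epidermis of C57Bl/6J mice gave 2 libraries of the wound center and 2 of the wound margin. Wild-type dermis gave 5 libraries from the center and 2 from the margin, and another 2 came from the wound center dermis of K14-Cre-Twist1 mice, in which Cre, and with it the loss of Twist1, is driven in keratinocytes and not in dermal cells. Of the wild-type center dermis libraries, 2 were set by the study beside the margin libraries and 3 beside the K14-Cre-Twist1 libraries. Spiny mice were wild type and 2 months old, and whole wounds were sampled without regions. PWD0 is taken here as unwounded skin, since the methods of the study name shaved skin or wound as the tissue harvested. Spiny epidermis gave 1, 2, 2 and 1 libraries, and spiny dermis 2, 1, 2 and 1, at PWD0, PWD14, PWD21 and PWD28. The center was taken as a punch biopsy, and the layers were parted by hand in lab mouse and after trypsin in spiny mouse. The study calls its RNA-seq replicates independent, but the labels tie no library to an animal, and p-values measure the spread between libraries. The days are those of the labels, and a sample list in the study gives the wound days of spiny mice as slightly different.

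Depth was 19413261 to 86532134 reads on genes in the lab mouse libraries and 5669760 to 34751956 in the spiny mouse libraries. In spiny epidermis the share of reads on genes was 26.8 and 24.4% at PWD14 and 34.1 and 38.3% at PWD21. It was 34.1% at PWD0 and 33.3% at PWD28. The part of this difference in the changes between days was not tested. Reads of both species were aligned to the lab mouse genome, so levels were not compared between species. Levels below are CPM, the reads of a gene scaled to a library total of 1000000 reads on all gene rows. In spiny epidermis the 20 most abundant genes took 21.98 to 24.6% of the reads at PWD14, 14.2 to 15.5% at PWD21, 12.1% at PWD0 and 10.5% at PWD28. Fold changes were fitted after TMM scaling, which limits the weight of such genes. Its factors were 0.72 and 0.76 at PWD14, 1.06 and 1.09 at PWD21, 1.22 at PWD0 and 1.31 at PWD28. A CPM ratio at PWD14 therefore lies below the fitted ratio. The part of the 20 genes in this gap was not tested. Scaling by library size alone moved the median of all genes by -0.53 on the log2 scale for PWD14 against PWD21 and by -0.72 for PWD14 against PWD0. A gene was called where the quasi-likelihood test of edgeR gave a false discovery rate (FDR) below 0.05.

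The lab mouse layers carried mainly the markers of their label. In lab epidermis 9 suprabasal keratinocyte markers, Krt1 and Krt10 among them, summed to 150055 to 204060 CPM. In the 9 lab dermis libraries the sum was 6.95 to 3562 CPM in 8, and 30254 CPM in replicate 2 of K14-Cre-Twist1. Fibroblast markers (15 genes, led by collagens) summed to 1158 to 7274 CPM in lab epidermis and 106590 to 199378 CPM in lab dermis. Spiny PWD0 dermis also carried keratinocyte genes. Krt17 had 15772 and 9280 CPM in it and 6636 CPM in PWD0 epidermis, whereas Krt10 had 498 and 539 CPM and 22310 CPM.

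Cells build cholesterol from acetyl-CoA through the mevalonate pathway, which makes squalene, and a sterol arm that closes squalene into lanosterol and trims it to cholesterol. SREBP2, the product of Srebf2, switches the enzymes on when sterol is scarce, and INSIG1 holds it back when sterol is plentiful. In the upper epidermis, cholesterol, very long chain ceramides and free fatty acids fill the space between the dead cornified cells, and transglutaminases cross-link the protein envelope to which omega-hydroxyceramides are bound. Loss of ABCA12, ALOX12B, ALOXE3, PNPLA1, CERS3, SDR9C7 or TGM1 causes ichthyosis in people.

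The start regions of the cholesterol genes were alike in 2 short motifs. RefSeq promoters on GRCm38.p6, from 250 bases before to 50 after a start, were found for 32 of the 36 members. Fdps, Fdft1, Sqle and Aloxe3 had no entry. CCAAT, searched on both strands, was in 12 of 14 promoters of cholesterol members and in 8 of 22 promoters of barrier members, against 37.4% of all 32851 mouse promoters. GGGCGG was in 13 of the 14 and in 11 of the 22, against 35.7% of all promoters. TCACNCCAC, a sterol regulatory element of the kind that SREBP proteins bind, was in 1 of the 14 and in 0 of the 22, against 1.24%. TGANTCA, an AP-1 site, was in 2 of the 14 and in 0 of the 22, against 7.81%. The promoters below are those of the enzyme with the sterol regulatory element (Hmgcs1), of 3 sterol arm enzymes that were lower at PWD14 in spiny epidermis (Cyp51, Lss, Sc5d) and of the barrier gene with the largest drop there (Sdr9c7). Capitals mark CCAAT or its reverse ATTGG, and TCACCCCAC in Hmgcs1, which starts 137 bases before the start of transcription and overlaps none of the gene's 4 CCAAT matches. They are lab mouse sequences.

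Hmgcs1 (chr13:119690101-119690400, plus strand): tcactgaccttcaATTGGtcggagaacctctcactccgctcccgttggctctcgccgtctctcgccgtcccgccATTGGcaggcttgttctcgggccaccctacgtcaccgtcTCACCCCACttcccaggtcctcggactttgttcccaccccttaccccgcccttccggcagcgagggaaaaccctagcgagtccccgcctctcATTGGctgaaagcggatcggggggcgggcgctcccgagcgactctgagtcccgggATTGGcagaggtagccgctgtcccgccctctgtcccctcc
Cyp51 (chr5:4104648-4104947, minus strand): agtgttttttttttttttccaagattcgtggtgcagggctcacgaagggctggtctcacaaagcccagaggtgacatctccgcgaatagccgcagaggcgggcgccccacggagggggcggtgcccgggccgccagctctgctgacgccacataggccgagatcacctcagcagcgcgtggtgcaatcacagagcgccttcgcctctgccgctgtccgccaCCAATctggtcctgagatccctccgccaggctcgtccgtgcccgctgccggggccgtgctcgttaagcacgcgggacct
Lss (chr10:76531355-76531654, plus strand): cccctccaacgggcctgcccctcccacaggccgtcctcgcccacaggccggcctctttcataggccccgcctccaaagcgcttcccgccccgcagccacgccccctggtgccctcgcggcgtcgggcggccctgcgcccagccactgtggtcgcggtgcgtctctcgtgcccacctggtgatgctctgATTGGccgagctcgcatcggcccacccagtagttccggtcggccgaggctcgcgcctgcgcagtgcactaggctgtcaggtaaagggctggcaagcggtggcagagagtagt
Sc5d (chr9:42264251-42264550, minus strand): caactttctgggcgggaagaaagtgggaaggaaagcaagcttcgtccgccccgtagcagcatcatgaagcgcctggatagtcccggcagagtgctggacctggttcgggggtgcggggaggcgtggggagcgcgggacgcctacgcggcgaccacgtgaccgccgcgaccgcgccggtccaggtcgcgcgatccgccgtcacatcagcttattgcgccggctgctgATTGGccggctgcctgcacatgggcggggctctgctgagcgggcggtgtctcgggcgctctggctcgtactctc
Sdr9c7 (chr10:127898285-127898584, plus strand): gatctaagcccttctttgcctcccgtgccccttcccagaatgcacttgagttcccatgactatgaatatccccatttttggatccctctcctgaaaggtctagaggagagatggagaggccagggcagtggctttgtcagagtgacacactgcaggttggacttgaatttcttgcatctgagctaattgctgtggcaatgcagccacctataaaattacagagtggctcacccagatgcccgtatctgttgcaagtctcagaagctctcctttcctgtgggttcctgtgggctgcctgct

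The Sdr9c7 window held none of the 4 motifs, while each of the 4 cholesterol windows shown held CCAAT and GGGCGG. Dhcr7, also lower at PWD14, has several promoters and is not shown. Its promoter 1 held no CCAAT, and its promoter 2 held neither CCAAT nor GGGCGG. These matches describe letters in a window, and binding was not measured.

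Spiny mouse epidermis changed across days. From PWD14 to PWD21 most of the sterol arm, both regulators and 4 of the 5 acylceramide genes rose. At PWD14 against PWD21, 4 of the 36 members were higher and 20 lower. Over all 14336 genes tested, 20.4% were higher and 20.9% lower. The members' median log2 fold change was -0.61, against -0.07 for all genes tested. Under scaling by library size alone, 1 member was higher and 27 were lower. In that fit 6948 of 14336 genes were called in either direction, and the median log2 fold change of all genes was -0.60. Fewer members were called without PWD21 replicate 2.

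The mevalonate arm did not move as one. HMGCS1 makes HMG-CoA. Hmgcs1 stood at 394 and 458 CPM at PWD14 and 457 and 608 CPM at PWD21, and was not called (FDR = 0.34). Mvk, mevalonate kinase, was not called either (FDR = 0.62), at 32.01 and 36.5 CPM against 44.3 and 47.2 CPM. Both had a positive log2 fold change after TMM scaling and a negative one by library size alone. Mvd, mevalonate diphosphate decarboxylase, was lower at PWD14, with a log2 fold change of -0.54 ± 0.18 (SE, FDR = 0.035). FDPS joins the isoprene units into farnesyl diphosphate. Fdps had 90.1 and 78.9 CPM at PWD14 and 72.6 and 64.6 CPM at PWD21. Both PWD14 libraries lay above both PWD21 libraries, and Fdps was higher by a log2 fold change of 0.83 ± 0.18 (SE, FDR = 0.0042). Under scaling by library size alone it was not called. Idi1, the isomerase of the pathway, gave at most 0.72 CPM in any spiny epidermis library and at most 4.23 CPM in any library of the series, so that no change in it was detectable at this depth in the spiny libraries.

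The sterol arm was lower at PWD14 in 6 of its 8 enzymes, with a median log2 fold change of -1.26 over the 8. CYP51 removes the methyl group at carbon 14 of lanosterol. Cyp51 fell to 49.5 and 58.2 CPM at PWD14, beside 272 and 405 CPM at PWD21, 576 CPM at PWD0 and 277 CPM at PWD28. Its PWD14 libraries lay far below every other day, and the log2 fold change against PWD21 was -2.11 ± 0.21 (SE, FDR = 0.00010). DHCR7 carries out the last reduction to cholesterol. Dhcr7 had 22.6 and 30.9 CPM at PWD14, 137 and 183 CPM at PWD21, 108 CPM at PWD0 and 87.9 CPM at PWD28. It was again lowest at PWD14 in both libraries, with a log2 fold change of -2.04 ± 0.21 against PWD21 (SE, FDR = 0.00011). Sc5d, which inserts a double bond in the sterol ring, Lss, which closes squalene epoxide into lanosterol, Nsdhl, a sterol decarboxylase, and Fdft1, which makes squalene, were lower with log2 fold changes of -0.68 to -1.61. The 2 enzymes of the arm that were not called were Sqle, squalene epoxidase (262 and 341 CPM at PWD14, 493 and 577 CPM at PWD21, FDR = 0.19), and Msmo1, which removes methyl groups at carbon 4 (219 and 293 CPM, 348 and 450 CPM, FDR = 0.68). Both were called lower at PWD14 when scaled by library size alone. Reads of Fdft1 and of Ctsb, which lies on the other strand and shares 18.3% of the exon bases of Fdft1 in GENCODE vM21, could not be told apart by strand in the spiny libraries. Ctsb itself was lower at PWD14 with a log2 fold change of -0.70.

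**Figure D1:**
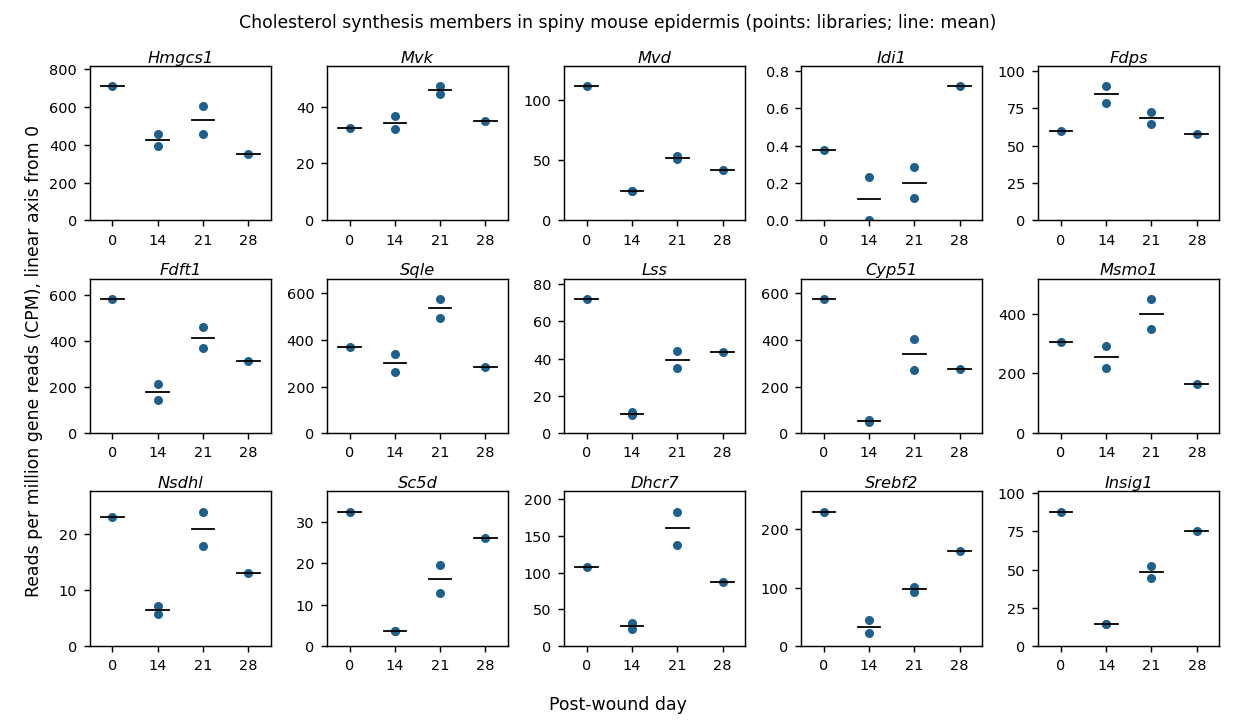
CPM (linear axes from 0) of the 15 cholesterol members in spiny mouse epidermis by post-wound day; points are libraries (1, 2, 2 and 1 at PWD0, 14, 21 and 28) and lines the mean. Cyp51, Dhcr7, Sc5d, Lss and Srebf2 are lowest in the PWD14 libraries, whereas Fdps is highest there.

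Both regulators were lower at PWD14 than on the other days. Srebf2 had 45.0 and 21.6 CPM at PWD14, 92.6 and 102 CPM at PWD21, 231 CPM at PWD0 and 163 CPM at PWD28 (PWD14 against PWD21, log2 fold change -1.01 ± 0.29, SE, FDR = 0.017). Insig1 had 14.3 CPM in both PWD14 libraries, 44.4 and 52.3 CPM at PWD21, 88.0 CPM at PWD0 and 75.2 CPM at PWD28 (log2 fold change -1.22 ± 0.20, SE, FDR = 0.00084). Both thus had the same order of days, PWD14, PWD21, PWD28 and PWD0 from low to high, in which PWD28 and PWD21 did not differ at the threshold (FDR = 0.37 for Srebf2 and 0.30 for Insig1).

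Of the other cholesterol genes, from a list of 21 of which 18 were tested, 3 were higher and 7 lower at PWD14. Of 15 fatty acid synthesis genes, 2 were higher and 7 lower, and of 9 genes of sterol efflux 2 and 3. Ggps1, which makes geranylgeranyl diphosphate, had the largest change of these lists, at 8.78 and 12.7 CPM at PWD21 and 0.0775 and 2.04 CPM at PWD14, where one library was near 0 (log2 fold change -2.67 ± 0.57, SE, FDR = 0.0039).

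Among the barrier members, 3 were higher and 11 lower at PWD14 than at PWD21, with a median log2 fold change of -0.57. The acylceramide genes held the largest drop. SDR9C7 oxidises acylceramide before it is bound to the cornified envelope. Sdr9c7 had 13.6 and 8.17 CPM at PWD14, 74.3 and 111 CPM at PWD21, 72.8 CPM at PWD0 and 48.6 CPM at PWD28. The log2 fold change from PWD21 to PWD14 was -2.56 ± 0.28 (SE, FDR = 0.00015). PNPLA1 moves linoleate onto omega-hydroxyceramide. Pnpla1 had 8.29 and 11.0 CPM at PWD14, 47.1 and 53.9 CPM at PWD21, 55.3 CPM at PWD0 and 47.5 CPM at PWD28, with a log2 fold change of -1.84 ± 0.22 (SE, FDR = 0.00018). In both genes the PWD14 libraries were the only ones well below the rest. Aloxe3 (-0.995 on the log2 scale), a lipoxygenase of acylceramide oxidation, and Cyp4f39 (-0.51), the omega-hydroxylase, were lower as well. Alox12b, the other lipoxygenase, was not called (174 and 188 CPM at PWD14, 300.4 and 362 CPM at PWD21, FDR = 0.12).

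Ceramide synthesis was uneven. Cers4, a ceramide synthase for long acyl chains, had 4.34 and 0.96 CPM at PWD14, 15.5 and 11.9 CPM at PWD21, 56.8 CPM at PWD0 and 31.1 CPM at PWD28. It was lower at PWD14 by a log2 fold change of -1.92 ± 0.46 (SE, FDR = 0.0074). Cers3, the synthase of the ultra long chain ceramides of the barrier, was not called (166 and 211 CPM at PWD14, 238 and 282 CPM at PWD21, FDR = 0.77). Degs2, which makes phytoceramide, was lower, with a log2 fold change of -0.57. The 2 subunit genes of serine palmitoyltransferase, the first step, were not called. Sptlc2 had 155 and 181 CPM at PWD14 and 188 and 184 CPM at PWD21 (FDR = 0.074), and Sptlc3, at 1.34 to 8.39 CPM on the 2 days, had a log2 fold change of -0.96 (FDR = 0.12).

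Of the elongases, Elovl6, which extends palmitate (log2 fold change -1.74), Elovl4, which makes the ultra long chains (-0.69), and Elovl7 (-0.65) were lower. Elovl1 was not called (FDR = 0.52). It had the most CPM per kilobase of exon among the members in spiny epidermis on each day. That rank rests on lab mouse exon lengths and on alignment to the lab mouse genome, which may recover spiny mouse genes unequally. UGCG makes glucosylceramide, the form in which ceramide is loaded into lamellar granules by ABCA12. Ugcg had 212 and 216 CPM at PWD14 and 206 and 182 CPM at PWD21 and was called higher at PWD14 (log2 fold change 0.68 ± 0.16, SE, FDR = 0.0068), whereas Abca12 was lower (-0.67 ± 0.17, SE, FDR = 0.0090). Acer1, the alkaline ceramidase of the upper epidermis, was lower, with a log2 fold change of -1.63, and Smpd1, acid sphingomyelinase, was not called (FDR = 0.68).

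Of the transglutaminases, Tgm3 and Tgm1 were higher at PWD14. Tgm3 had 83.1 and 78.7 CPM at PWD14, 38.8 and 38.5 CPM at PWD21, 49.9 CPM at PWD28 and 2.55 CPM at PWD0. Every wound library lay far above the single PWD0 library, and PWD14 exceeded PWD21 by a log2 fold change of 1.60 ± 0.18 (SE, FDR = 0.00015). Tgm1, the main transglutaminase of the cornified envelope, had 689 and 559 CPM at PWD14 and 576 and 500.5 CPM at PWD21. These ranges overlap in CPM, and the call (log2 fold change 0.75 ± 0.18, SE, FDR = 0.0072) was lost, like those of Fdps and Ugcg, under scaling by library size alone, where Tgm3 was the member called higher. Tgm5 was not called (FDR = 0.21).

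**Figure D2:**
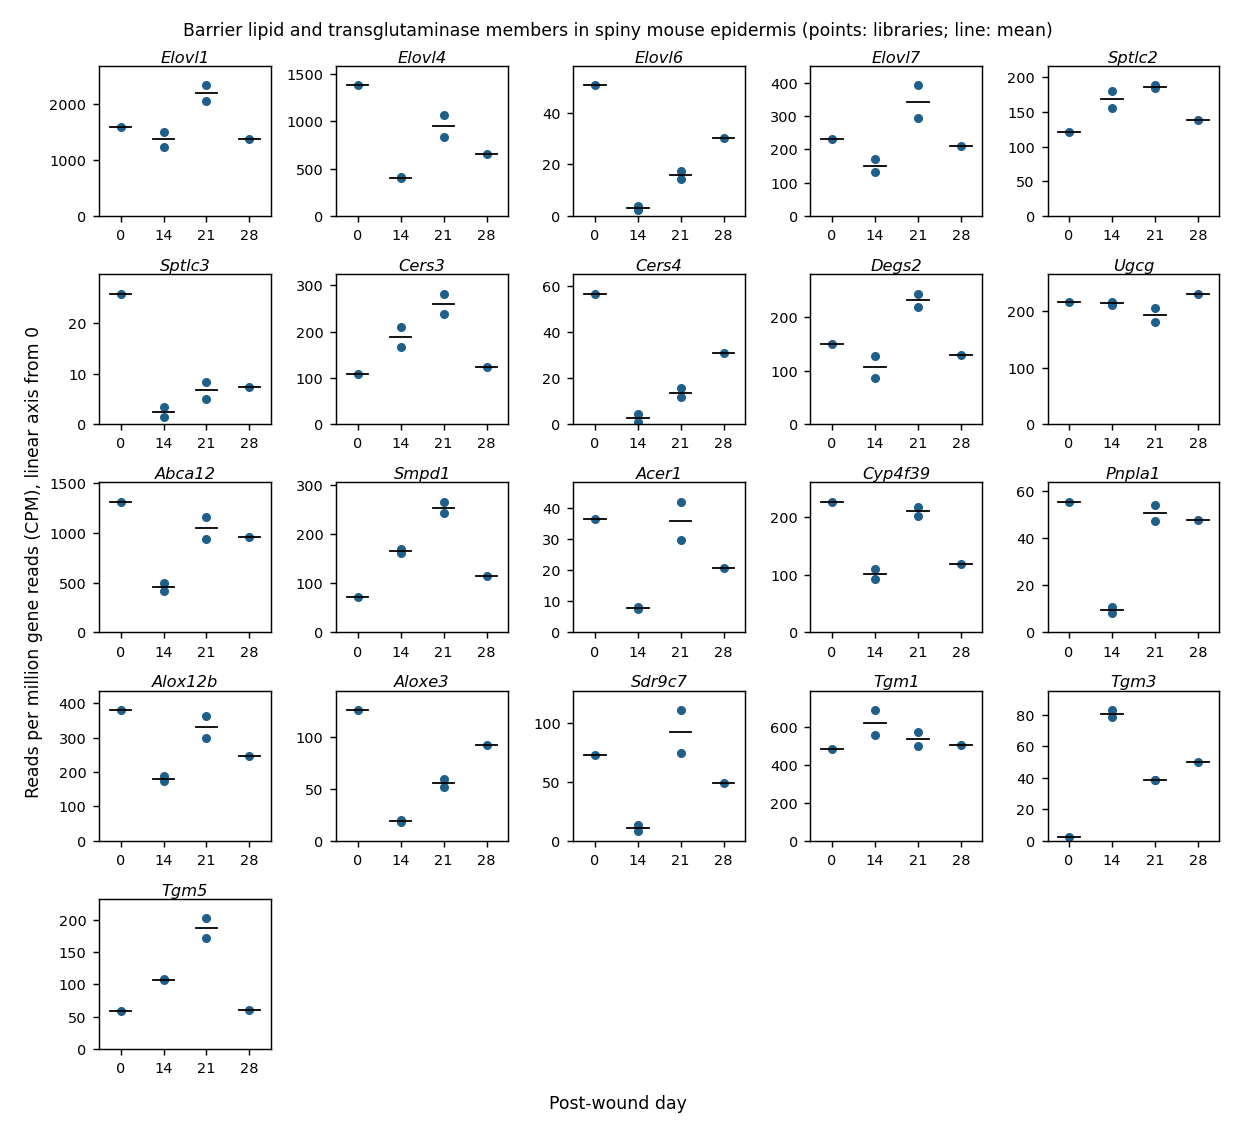
CPM (linear axes from 0) of the 21 barrier members in spiny mouse epidermis by post-wound day; points are libraries (1, 2, 2 and 1 at PWD0, 14, 21 and 28) and lines the mean. Sdr9c7, Pnpla1, Acer1 and Aloxe3 dip at PWD14, Tgm3 is near 0 at PWD0, and Cers3, Smpd1 and Tgm5 peak at PWD21. After TMM scaling Cers3 is slightly higher at PWD14 than at PWD21, a difference that was not called.

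Of 39 other barrier genes, 38 were tested, and 3 were higher and 14 lower at PWD14 than at PWD21. Lipk, a lipase of the upper epidermis, had a mean of 52.4 CPM at PWD14 and 467 CPM at PWD21 (log2 fold change -2.62 ± 0.38, SE, FDR = 0.00048). Asah1, acid ceramidase, had 5.61 and 44.2 CPM (-2.43 ± 0.25, SE, FDR = 0.00011).

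Several cell type markers moved between the same days. Of the 9 suprabasal markers tested, 3 were higher and 4 lower at PWD14, with sums of 32319 and 34616 CPM at PWD14 and 45607 and 45431.5 CPM at PWD21. Basal markers, 3 of 8 higher and 1 lower, summed to 47644 to 57109.9 CPM at PWD14 and 28799 to 32952 CPM at PWD21. Most of this was Krt14, at 46374 and 37037 CPM against 19073 and 15598 CPM. Krt5 had less CPM at PWD14, at 9621 and 9722 CPM against 12418 and 11831 CPM. The wound keratins Krt6a, Krt6b, Krt16 and Krt17, 3 of 4 higher and 0 lower, summed to 33573 to 54422 CPM and 9799 to 15972 CPM. Sebocyte markers, of which 7 of 9 were tested and 3 were lower, summed to 31.7 to 123 CPM at PWD14 and 295 to 306 CPM at PWD21. Hair keratins were lower at PWD14 in 11 of 11 genes, at 41.5 to 71.1 CPM against 657 to 1316 CPM. Fibroblast markers summed to 831 to 888 CPM at PWD14 and 2106 to 2201 CPM at PWD21, with 1 of 15 higher and 2 lower. Most of the PWD21 sums was Postn, at 1185 and 1514 CPM beside 247 and 371 CPM at PWD14 and 1428 CPM at PWD0. Col1a1 had 78.6 and 54.8 CPM at PWD14 and 69.2 and 7.94 CPM at PWD21. Leukocyte markers (2 of 8 higher, 3 lower) summed to 1548 to 2538 CPM and 297 to 504 CPM, most of it S100a9, while Ptprc, carried by all leukocytes, was at 4.72 to 7.13 CPM and 18.4 to 22.2 CPM. Adipocyte markers summed to 5189.9 to 6329.9 CPM and 1075 to 1381 CPM, nearly all Fabp4, with Adipoq, Plin1 and Lep at 0.255 CPM or less in these 4 libraries. The part of these cell types in the members' changes was not tested, and in bulk tissue fewer cells of a type and less RNA per cell cannot be told apart.

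**Figure D3:**
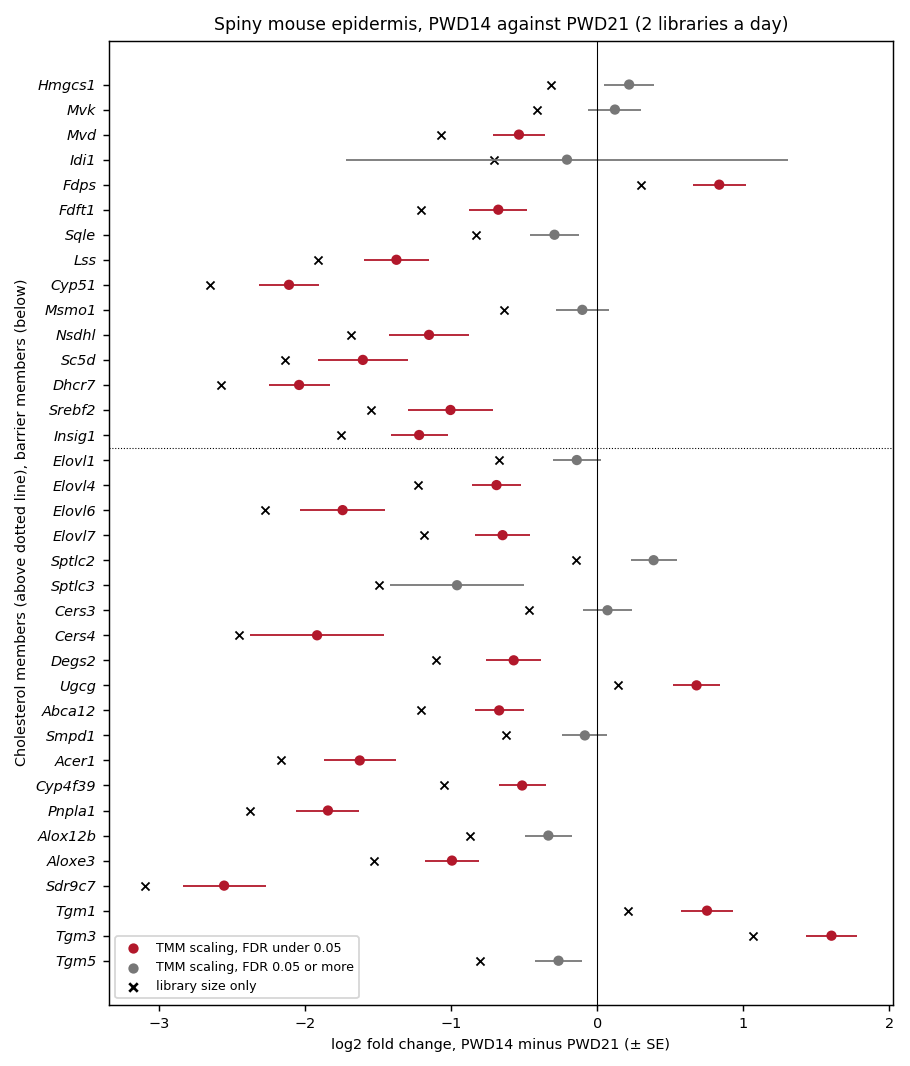
Log2 fold change of each member between PWD14 and PWD21 in spiny mouse epidermis (circles with SE bars after TMM scaling, red where the FDR is under 0.05, and crosses for scaling by library size alone). In total 20 red circles lie left of 0 and 4 right of it, and each cross lies to the left of its circle.

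Against PWD0, which had 1 library whose spread was taken to be that of the other days, 9 members were higher and 18 lower at PWD14. Over all genes 22.7% were higher and 26.1% lower. The comparisons with PWD0 and with PWD28 share libraries with each other and with that of PWD14 and PWD21. Cers4 (log2 fold change -3.76 ± 0.49, SE, FDR = 0.00014) and Elovl6 (-3.25 ± 0.32, SE, FDR = 3.2e-05) had the largest drops. Tgm3 rose most (5.70 ± 0.34, SE, FDR = 3.9e-06), and Smpd1, Tgm5 and Cers3 were higher by 1.51 to 1.92 on the log2 scale. Under scaling by library size alone the split was 4 higher and 21 lower, where the median log2 fold change of all genes was -0.87. Sebocyte markers, 6 of 7 lower, summed to 1233 CPM at PWD0 and 31.7 to 123 CPM at PWD14, while 4 of 4 wound keratins and 6 of 9 suprabasal markers were higher. Their part in the result was not tested.

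At PWD21 against PWD0, 10 members were higher and 7 lower, where 13.4% of all genes were higher and 15.3% lower. The members' median log2 fold change was 0.04, and that of all genes was 0.04. Sterol enzymes gave 2 higher (Sqle and Dhcr7) and 0 lower of 8, while Srebf2 (-1.07) and Insig1 (-0.68) were lower. Among barrier members Smpd1 rose by 2.01 ± 0.21 (SE, FDR = 0.00015) and Tgm5 by 1.86 ± 0.22 (SE, FDR = 0.00031) on the log2 scale, and Cers4, Sptlc3, Elovl6 and Aloxe3 were lower. Library size alone gave 5 higher and 10 lower, where the median log2 fold change of all genes was -0.15. Without PWD21 replicate 1 the count was 8, and without PWD21 replicate 2, 10. Sebocyte markers were lower in 6 of 7 genes and basal markers in 6 of 8, and hair keratins higher in 9 of 11, with sums of 169 CPM at PWD0 and 657 to 1316 CPM at PWD21. Their part was not tested.

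At PWD28, again 1 library, 0 members were higher and 16 lower than at PWD21, where 10.3% of all genes were higher and 8.78% lower. At an unadjusted p under 0.05, 1 member was higher and 22 were lower, against 17.3% and 16.6% of all genes. Tgm5 (61.1 CPM beside 172 and 202 CPM, log2 fold change -1.91 ± 0.22, SE, FDR = 0.00030) and Msmo1 (166 CPM beside 348 and 450 CPM, -1.56 ± 0.24, SE, FDR = 0.0019) had the largest drops. Hair keratins, which in the PWD28 library summed to 27700 CPM, were higher than at PWD21 in 11 of 11 genes tested, and their part in the members' shares was not tested. Library size alone gave 2 higher and 8 lower, where the median log2 fold change of all genes was 0.28. Fewer members were called without replicate 2 of PWD21.

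After TMM scaling, no member with a mean of at least 1 CPM (35 of 36) was lowest at PWD21, the lowest day of 16.7% of all genes. PWD14 was the lowest day of 15 of the 35, PWD28 of 16 and PWD0 of 4, beside 38.7%, 16.8% and 27.8% of all genes. The order depended on the scaling. On unscaled CPM PWD14 was the lowest day of 23, PWD0 of 7, PWD28 of 4 and PWD21 of 1, beside 60.9%, 21.1%, 6.07% and 12.0% of all genes.

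Lab mouse epidermis, compared between wound center and margin at PWD14, addressed whether the region where new hair follicles form differs from its surround. No member was called, where 1.24% of all genes were. At an unadjusted p under 0.05 12 members were higher and 1 lower in the center, against 13.1% and 10.4% of all genes. The median log2 fold change was 0.32 for the members and -0.02 for all genes.

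The members nearest to a call belonged to several roles. Degs2 had 181 and 183 CPM in the center and 88.6 and 77.4 CPM in the margin (log2 fold change 1.03 ± 0.22, SE, FDR = 0.089). Srebf2 had 138 and 146 CPM against 57.7 and 81.4 CPM (0.93 ± 0.22, SE, FDR = 0.11). Cyp4f39 had 218 and 216 CPM against 67.5 and 119 CPM (1.13 ± 0.28, SE, FDR = 0.11). In all 3 both center libraries lay above both margin libraries. Tgm3 (778 and 744 CPM against 388 and 434 CPM, FDR = 0.13) and Tgm1 (475 and 521 CPM against 163 and 286 CPM, FDR = 0.13) were placed likewise. Hmgcs1, the member with an unadjusted p under 0.05 in the other direction, had 269 and 288 CPM in the center and 402 and 405 CPM in the margin (log2 fold change -0.64 ± 0.21, SE, FDR = 0.16). Sterol enzymes other than Lss and Msmo1 had unadjusted p-values of 0.087 to 0.76. Cyp51 stood at 116 and 124 CPM in the center and 119 and 125 CPM in the margin.

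The 2 margin libraries differed from each other by more than the 2 center libraries did, with a chi-square per degree of freedom over genes of 394 against 36.1. Mvd, for example, had 4.34 and 15.2 CPM in them, and Fdps 7.77 and 41.6 CPM. With either margin library left out, 25 members were called (21 higher and 4 lower without replicate 1, 20 and 5 without replicate 2), beside 5508 of 15123 and 7405 of 14553 genes in the same fits, and with either center library left out 0 members were. The likelihood ratio test and DESeq2 each called 7 members, all higher in the center, beside 1533 and 1511 of 14165 genes in the same fits. Fibroblast markers summed to 6028 to 7274 CPM in the center and 1158 to 2933 CPM in the margin, with 2 of 15 called higher, and the wound keratins to 12053 to 17488.5 CPM and 5247 to 9235 CPM. Sebocyte markers were at 6.46 to 8.31 CPM in total in all 4 libraries. The part of these cell types in the members' levels was not tested.

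**Figure D4:**
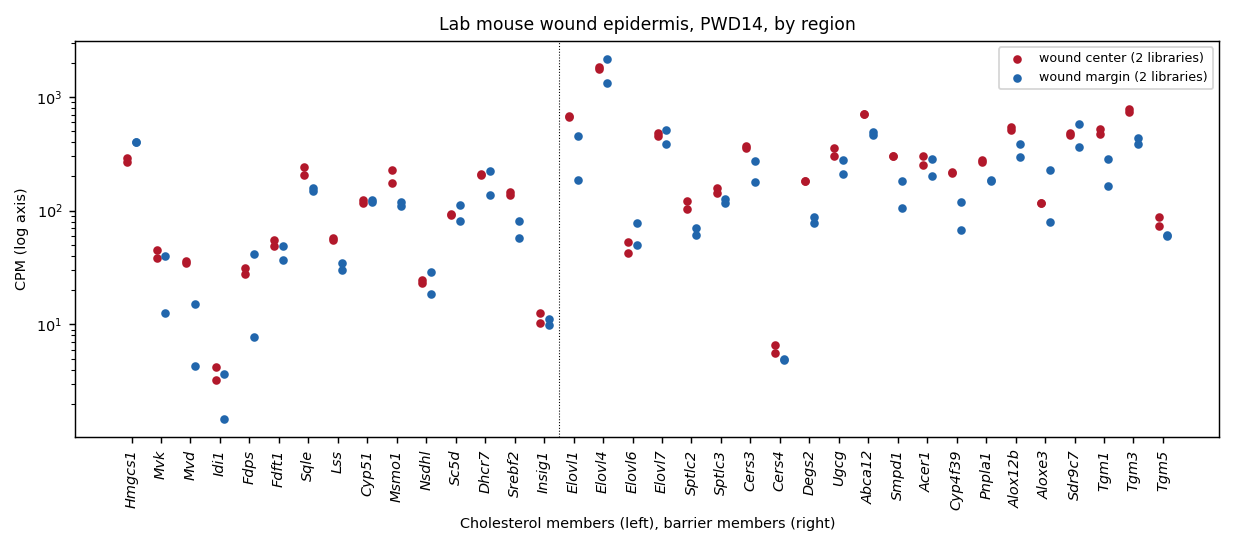
CPM (log axis) of the 36 members in lab mouse wound epidermis at PWD14; each point is a library, 2 of the wound center (red) and 2 of the margin (blue). For Degs2, Srebf2, Tgm1 and Tgm3 the center points lie above the margin points, and for Hmgcs1 below them, but no member passed an FDR of 0.05.

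Within lab epidermis the members spanned a wide range. Per kilobase of exon, Elovl4 was the most abundant in both regions (589.8 CPM per kb in the center and 576 in the margin) and Cers4 the least (0.497 and 0.403). Hmgcs1 was the most abundant cholesterol member, at 60.7 and 87.9 CPM per kb.

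Dermis served as the reference layer. At PWD21 in spiny mouse, 33 of 35 members tested were higher in epidermis than in dermis and 0 lower, where 29.4% of all genes were higher. The median log2 difference was 3.02 for the members and -0.06 for all genes. Alox12b (300.4 and 362 CPM against 1.78 and 2.94 CPM) and Abca12 (933 and 1159 CPM against 10.1 CPM in both) were the farthest apart, with log2 differences of 7.22 ± 0.34 (SE, FDR = 6.1e-06) and 6.805 ± 0.27 (SE, FDR = 5.0e-06). Cholesterol enzymes were closer, with a median of 2.11. Srebf2 (FDR = 0.18) and Cers4 (FDR = 0.27) were not called.

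In lab mouse, 33 of 36 members were higher in epidermis, where 30.7% of all genes were, and Cers4 was lower (4.90 to 6.54 CPM against 22.5 to 47.5 CPM, log2 difference -1.91 ± 0.26, SE, FDR = 7.3e-05). Tissue and read type cannot be told apart here, since lab epidermis was read paired-end and lab dermis single-end. Sptlc2 (61.2 to 122 CPM in epidermis, 129 to 159 CPM in the 4 dermis libraries of the comparison, FDR = 0.76) and Insig1 (9.86 to 12.5 CPM, 19.2 to 35.7 CPM, FDR = 0.075) were not called. With a minimum of 10 counts in every library, which drops members near 0 in dermis, 19 were higher and 2 lower.

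In lab dermis, 5 members were lower in the wound center than in the margin and 0 higher, where 0.735% of all genes were lower. They were Hmgcs1 (57.3 and 74.3 CPM against 146 and 182 CPM, FDR = 0.031), Cyp51 (32.7 and 27.7 CPM against 126 and 119 CPM, FDR = 0.0051), Msmo1 (27.3 and 18.1 CPM against 82.2 and 135 CPM, FDR = 0.012), Elovl4 (2.95 and 12.6 CPM against 103 and 293 CPM, FDR = 0.0042) and Elovl6 (3.17 and 12.4 CPM against 50.6 and 159 CPM, FDR = 0.018). In each, both center libraries lay below both margin libraries. Beside them, suprabasal keratinocyte markers, 7 of 9 lower, summed to 216 to 384 CPM in the center and 1495 to 3562 CPM in the margin, and hair keratins to 0 to 4.31 CPM and 905 to 909 CPM. Their part in the result was not tested. Leaving out margin replicate 2 left 1 member called, and margin replicate 1, 3.

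The log2 fold change from margin to center was more positive in epidermis than in dermis for 15 members, where 3.34% of all genes were so called, and more negative for 0. In dermis alone the fold changes of all 15 were below 0, from -0.51 (Srebf2) to -4.61 (Elovl4) in the 10 with more than 3 reads in a center library, whereas in epidermis alone they ran from -0.51 (Elovl6) to 1.13 (Cyp4f39). The median of all genes in this comparison was itself 0.31 on the log2 scale. Cyp51, Msmo1 and Sqle, which were not called in epidermis alone, differed by 1.95 ± 0.33, 3.001 ± 0.43 and 2.12 ± 0.33 (SE, FDR = 0.0084, 0.0043 and 0.0065). Without dermis margin replicate 2 the count was 5, and without either center dermis library 7.

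In K14-Cre-Twist1 wound center dermis no member was called against the 3 wild-type libraries set beside them, where 0.0565% of all genes were called. At an unadjusted p under 0.05, 12 members were higher and 0 lower, against 6.98% and 4.54% of all genes. Twist1 itself had 73.4 and 44.0 CPM in the K14-Cre-Twist1 dermis and 36.3 to 105 CPM in the 3 wild-type libraries, a layer in which the deletion is not driven. The 2 K14-Cre-Twist1 libraries stood apart. Elovl4 had 5.27 CPM in replicate 1 and 365 CPM in replicate 2, Tgm3 3.11 and 204 CPM, and Sdr9c7 0.89 and 117 CPM, whereas the 3 wild-type libraries had at most 2.87, 0 and 0 CPM. Replicate 2 held 30254 CPM of suprabasal keratinocyte markers and replicate 1 401 CPM. Sc5d and Tgm5 were at 0 in replicate 2. Without replicate 1, 18 members were called higher and 2 lower, and without replicate 2 none.

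In spiny dermis 1 member (Smpd1) was higher and 19 were lower at PWD21 than at PWD0, where 11.5% of all genes were higher and 12.4% lower. Tgm5 fell from 45.3 and 58.9 CPM at PWD0 to 4.38 and 5.06 CPM at PWD21 (log2 fold change -3.52 ± 0.33, SE, FDR = 0.00052). Msmo1 fell from 173 and 222 CPM to 37.0 and 48.5 CPM (-2.26 ± 0.29, SE, FDR = 0.0018) and Fdft1 from 229 and 247 CPM to 58.0 and 62.3 CPM (-2.05 ± 0.27, SE, FDR = 0.0019). Tgm3 differed between the PWD0 libraries themselves, at 12.0 and 168 CPM. Hair keratins differed between them too, with Krt25 at 3.88 and 1260 CPM, Krt86 at 1.41 and 1448 CPM and Krt35 at 67.9 and 267 CPM. Of 11 hair keratins tested, 1 was lower at PWD21 and 0 higher. Markers of other cell types fell as well. Basal keratinocyte markers summed to 5686 to 9847 CPM at PWD0 and 529 to 922 CPM at PWD21, sebocyte markers to 1279 to 1943 CPM and 198 to 281 CPM, and adipocyte markers (8 of 8 lower) to 2205 to 2499.9 CPM and 162 to 308 CPM. Their part in the result was not tested. Without PWD21 replicate 1 the count was 7, and without PWD21 replicate 2, 12.

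**Figure D5:**
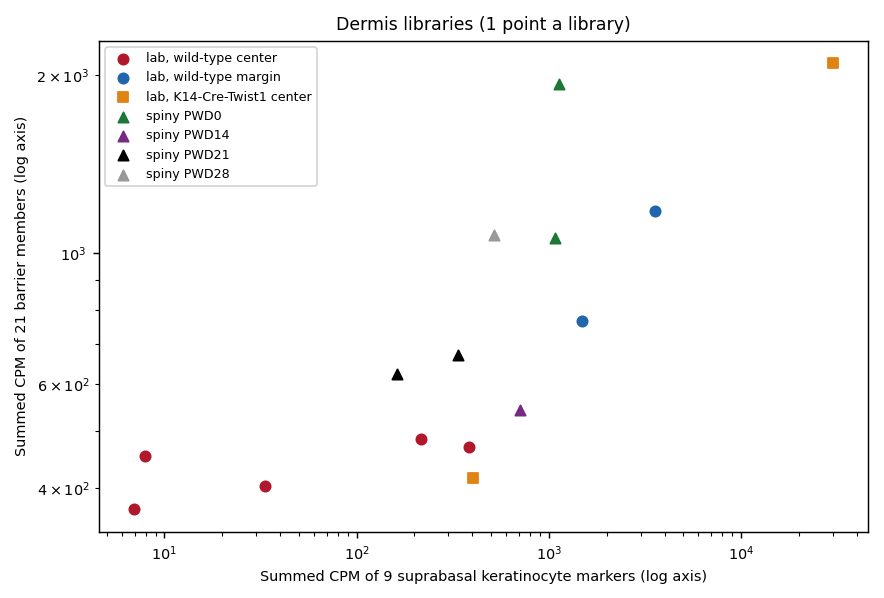
Summed CPM of the 21 barrier members against summed CPM of 9 suprabasal keratinocyte markers in the 15 dermis libraries (both axes log); each point is a library. K14-Cre-Twist1 replicate 2, at 30254 CPM of markers, has 2099 CPM of barrier members, and the 5 wild-type center libraries have 368 to 485 CPM.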

How the data were processed

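Per the labels and the methods of the study, the authors aligned reads of both species to mm10 with STAR (2.4.1d per the submitters' processing notes, while the methods name another version), counted them per RefSeq gene with HTSeq 0.6.0, and used TMM and edgeR. They deposited raw read counts per gene symbol for each of the 25 libraries, with 24500 gene rows. The 5 summary lines of htseq-count, most of them alignments of low mapping quality, were left out. They held 30.2 to 42.3% of the reads listed per lab mouse library and 47.1 to 75.6% per spiny mouse library.

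CPM were taken over all gene rows. Counts were tested with edgeR 4.0.16 (quasi-likelihood F-test, TMM, filterByExpr, R 4.3.3), and p-values were adjusted by Benjamini-Hochberg over all genes tested. Simulated counts with 200 changed genes at a log2 fold change of 3 were used to test the scripts. The share of changed genes recovered was lowest in the difference between layers (42%) and in K14-Cre-Twist1 (44.6%), and highest in spiny epidermis against dermis (100%). Of the genes called, 4.76% (PWD14 against PWD0) to 20.5% (spiny dermis) were false. In all comparisons but PWD14 against PWD0 the false share was above the FDR threshold. Groups came from the labels, also for the spiny mouse wounds that a sample list in the study puts at PWD 15, 20 and 30 in place of PWD14, PWD21 and PWD28, and the division of the wild-type center dermis from library names in the study. Alternatives were other scalings, filters, tests and libraries, among them DESeq2 1.42.0. The members and all gene lists were chosen with earlier results of these data known. Values per library are given for the 5 members with the largest fold change in each direction between PWD14 and PWD21 and for those nearest to a call in lab epidermis, the latter chosen after their values were seen. Of the other pathway genes, those named are among the 3 with the largest called change and a mean of at least 1 CPM. Libraries carry no molecular identifiers, and their small number limits the precision.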

Additional observations from a re-analysis of the deposited data

Results flagged for a closer look

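Among the 5 wild-type wound center dermis libraries, 1 library stood far from the others in 2 of the members tested with a mean of at least 1 CPM. Abca12 had 10.6 CPM in center replicate 2 and 0 in the other 4 libraries, and Elovl4 had 12.6 CPM in the same library, where the next highest had 2.95 CPM. Pnpla1 (4.43 CPM) and Sdr9c7 (3.91 CPM), whose means were too low for the test, were also above 0 only in that library. For normally distributed values chance alone gives a gap of the flagged size in about 1 in 20 groups. That rate need not hold for counts mostly at 0, and 24 members were looked at.

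The log2 fold change from margin to center was more positive in lab epidermis than in lab dermis for 15 members by a test of the difference itself, and in dermis alone all 15 were below 0. On the log2 scale the differences between the layers were 2.12 for Sqle, 1.95 for Cyp51, 3.001 for Msmo1 and 1.59 for Srebf2 among cholesterol members. Among elongases they were 4.67 for Elovl4, 3.32 for Elovl6 and 4.06 for Elovl7. Among the other barrier members they were 5.07 for Cers3, 3.59 for Cyp4f39, 6.74 for Alox12b, 4.001 for Tgm1, 10.46 for Sptlc3, 11.85 for Acer1, 9.76 for Tgm3 and 11.71 for Tgm5. The last 4 genes were at 0 in both dermis center libraries of this comparison, so that their fitted values depend on the prior count and are no bound, and Alox12b had 3 reads in 1 of them and 0 in the other. Suprabasal keratinocyte markers were lower in the center in dermis (216 to 384 CPM in these 2 center libraries, 1495 to 3562 CPM in the margin), and their part was not tested.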

How the results depend on the processing

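No paired analysis was possible because the labels carry no replicate numbers, and the numbers used here follow accession order and pair no libraries. Counts of members called stayed within 1.5 times of the value reported under the other alternatives run, except as follows. In lab epidermis the count of 0 became 7 with the likelihood ratio test, 7 with DESeq2 and 3 in a fit of 4 groups, and 0 to 25 with 1 library left out. In spiny epidermis leaving out 1 library gave 13 to 23 for PWD14 against PWD21, 8 to 21 for PWD21 against PWD0 and 8 to 21 for PWD28 against PWD21, where library size alone gave 10. Lab epidermis against dermis gave 21 with at least 10 counts in every library. Lab dermis center against margin gave 11 with the likelihood ratio test, 12 with DESeq2, 1 with the quasi-likelihood method of edgeR version 3 (an alternative chosen after seeing the data), 9 with all 5 center libraries and 1 to 7 with 1 left out. For K14-Cre-Twist1 the count of 0 became 7 with the likelihood ratio test, 6 with DESeq2, 8 with all 5 wild-type libraries and 0 to 20 with 1 left out. Spiny dermis gave 7 to 24 with 1 left out, and the difference between layers 6 with at least 10 counts and 5 to 20 with 1 left out. The cause of these shifts was not tested. Over all genes, calls went from 176 in lab epidermis to 1533 (likelihood ratio test), 1511 (DESeq2), 0 (edgeR version 3) and 966 (4 groups), with 70 to 7405 when 1 library was left out. In lab dermis they went from 125 to 886, 738, 54 (the first 3 of these tests) and 323 (all 5 center libraries), and 19 to 241 with 1 left out. For K14-Cre-Twist1 they went from 8 to 214, 787, 2 and 190 likewise, to 0 with at least 10 counts, and to 1 to 3353 with 1 left out. The difference between layers gave 540, and 1485 (likelihood ratio test), 1125 (DESeq2), 204 (at least 10 counts) and 167 to 1343 with 1 left out. In spiny mouse, leaving out 1 library moved them from 5912 to as few as 3304 (PWD14 against PWD21), from 4110 to 2190 (PWD21 against PWD0), from 2735 to between 1342 and 4240 (PWD28 against PWD21) and from 3666 to 1177 (dermis).

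Reversed in sign were, for PWD14 against PWD21 by library size alone, Hmgcs1 (-0.32), Mvk (-0.41), Sptlc2 (-0.15) and Cers3 (-0.46), and for PWD14 against PWD0 Ugcg (-0.020). With 1 library left out Msmo1 gave -0.30 to 0.072 (0.044 without PWD14 replicate 1 and 0.072 without PWD21 replicate 2), and Cers3 -0.084 to 0.18 (-0.084 without PWD14 replicate 2 and -0.040 without PWD21 replicate 1). None of these was called in those comparisons save Ugcg. Library size alone moved the median of all genes by 0.30 for PWD28 against PWD21, by -0.19 for PWD21 against PWD0 and by -0.82 for lab epidermis against dermis. DESeq2 moved that of the difference between layers by -0.16.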
